A study of Homo sapiens with 12 samples.

Results

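The 9 genes described here build, load and switch on the MHC class I complex. They were taken by name: the heavy chains HLA-B, HLA-C, HLA-E and HLA-F, the light chain B2M, the peptide transporter subunits TAP1 and TAP2, the loading bridge TAPBP (tapasin) and the transactivator NLRC5. All 9 were found among the 63677 genes of the count table and all 9 were among the 16287 genes with enough counts to be tested. The cells were HPB-ALL, an established human line from T-cell acute lymphoblastic leukaemia, kept in serum free of tetracycline, infected with lentivirus for inducible expression and selected with a drug. There were 3 lines, one for TAL1 (T5 in the sample names), one for LMO1 (L4) and one for both (C25, called TAL1/LMO1 here). Each was sampled in DMSO, the vehicle, and in doxycycline, the inducer, with 2 libraries per group and 12 in all. TAL1 binds E-box DNA with helix-loop-helix partners, LMO1 is an adaptor that joins such DNA-bound complexes, and both act as oncogenes in T-cell leukaemia. Not given in the sources used here are the dose and duration of doxycycline and whether a line is 1 clone. All 3 lines carried a transgene, so the action of the inducer itself and that of the transgenes cannot be told apart.

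Class I molecules sit on nearly all nucleated cells and show fragments of the cell's own proteins to CD8 T cells. The proteasome cuts the proteins, TAP1 and TAP2 pump the peptides into the endoplasmic reticulum, and tapasin holds the transporter to the waiting heavy chain, which leaves for the surface once it has bound both B2M and a peptide. HLA-B and HLA-C are the highly variable classical heavy chains, HLA-E shows leader peptides of other class I chains to the CD94 receptors of natural killer cells, and HLA-F is a less abundant non-classical chain. NLRC5 has no DNA-binding domain of its own and acts on class I promoters through the RFX complex, CREB/ATF and NF-Y factors, while interferons act there through IRF and STAT factors. Thymocytes carry less class I than mature T cells, and leukaemias can carry little of it.

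The promoter windows are shown because the members moved by different amounts although class I genes are known for sharing control elements. RefSeq (GRCh38.p14) gave windows of 300 bases, 250 before the transcription start and 50 after it, for 7 of the 9 members. HLA-E and NLRC5 are named only. Printed here are the 250 bases before the start, 5′ to 3′ in the direction of the gene, for the 3 heavy chains, for B2M and for TAP2. Capitals mark 4 kinds of letter match on either strand: the IRF core AANNGAAA, the CCAAT box, the CRE half-site TGACG and the NF-kappaB consensus.
HLA-B, chr6:31357180-31357429, minus strand: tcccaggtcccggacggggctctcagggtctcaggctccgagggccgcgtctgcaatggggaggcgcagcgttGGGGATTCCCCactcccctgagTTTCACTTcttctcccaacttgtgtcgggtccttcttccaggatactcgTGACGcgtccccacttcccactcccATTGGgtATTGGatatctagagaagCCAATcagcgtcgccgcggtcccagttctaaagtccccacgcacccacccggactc
HLA-C, chr6:31272093-31272342, minus strand: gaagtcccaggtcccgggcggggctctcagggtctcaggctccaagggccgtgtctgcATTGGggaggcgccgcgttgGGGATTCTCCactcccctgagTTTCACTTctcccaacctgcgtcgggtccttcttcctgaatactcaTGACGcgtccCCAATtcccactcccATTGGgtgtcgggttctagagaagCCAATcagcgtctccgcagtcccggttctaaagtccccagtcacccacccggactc
HLA-F, chr6:29723184-29723433, plus strand: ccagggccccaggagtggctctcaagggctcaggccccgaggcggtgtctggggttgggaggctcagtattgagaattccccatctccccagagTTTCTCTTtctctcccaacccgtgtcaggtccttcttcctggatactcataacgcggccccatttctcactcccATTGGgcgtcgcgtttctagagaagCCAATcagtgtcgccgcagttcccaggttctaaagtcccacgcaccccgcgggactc
B2M, chr15:44711267-44711516, plus strand: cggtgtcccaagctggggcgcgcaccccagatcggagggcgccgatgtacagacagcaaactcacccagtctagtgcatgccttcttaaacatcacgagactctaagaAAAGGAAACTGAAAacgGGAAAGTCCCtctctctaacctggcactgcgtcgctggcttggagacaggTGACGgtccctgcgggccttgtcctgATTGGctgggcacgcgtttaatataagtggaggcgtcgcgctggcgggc
TAP2, chr6:32838740-32838989, minus strand: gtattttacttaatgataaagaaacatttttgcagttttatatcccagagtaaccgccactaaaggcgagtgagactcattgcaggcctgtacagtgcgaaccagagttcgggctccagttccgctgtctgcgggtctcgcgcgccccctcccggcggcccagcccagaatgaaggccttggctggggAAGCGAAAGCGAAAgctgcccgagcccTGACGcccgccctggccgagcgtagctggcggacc

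An IRF core lay in the window of every one of these 7 members (for TAP1, which has 2 annotated starts, in the window of the first), against 22.8% of all 35116 promoter windows of that length. In HLA-B it spanned positions -155 to -148 relative to the start, in HLA-C -151 to -144 and in HLA-F -156 to -149, in each case on the opposite strand. In B2M 2 overlapping cores spanned -142 to -129 and in TAP2 another overlapping pair spanned -62 to -49. The NF-kappaB consensus was matched in HLA-B, HLA-C, B2M, TAP1 and TAPBP and in 11.3% of all windows, and a CCAAT box in the 3 heavy chains, B2M and TAP1 and in 34.6% of all windows. The CRE half-site was matched in HLA-B, HLA-C, B2M and TAP2 and in 24.6% of all windows. An E-box of the kind TAL1 complexes favour (CAGATG) was in none of these windows and in 14.7% of all, and the GATA letters AGATAA were in TAP1 alone and in 10.3% of all. The HLA-B and HLA-C windows were identical at 88.5% of aligned positions, HLA-B and HLA-F at 79.2%, and HLA-C and HLA-F at 78.5%. A match is a run of letters and was not tested as a binding site.

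The 12 libraries held 14865073 to 15917713 counts, and 3 counts corresponded to at most 0.198 CPM (counts scaled to a common library size), so every member was measured far above the counting floor. The library with the fewest counts of any member was at 96 (HLA-F). The induced transgenes followed the labels. TAL1 was at 4.06 and 3.88 CPM in the TAL1 line in DMSO and at 35.5 and 42.9 CPM in doxycycline, and in the TAL1/LMO1 line at 3.08 and 7.34 CPM against 932 and 868 CPM. LMO1 was at 3.93 and 1.76 CPM in the LMO1 line in DMSO and at 239 and 212 CPM in doxycycline, and in the TAL1/LMO1 line at 0.45 and 6.89 CPM against 1501 and 1576 CPM. The TAL1/LMO1 line therefore differed from the other lines in the amount of each transgene as well as in their combination, and the part of either in a response was not tested. The 10 T-lineage markers summed to 2168 to 2498 CPM in every library, with the leukocyte marker PTPRC at no more than 0.62 CPM. Of the 9 of them tested, 3 were higher and 6 lower with doxycycline in the TAL1/LMO1 line, where 28.5% of all genes tested were called higher and 31.7% lower. The sum of the 10 in that line was 2168 and 2184 CPM in DMSO and 2175 and 2327 CPM in doxycycline. The log2 changes of those 9 ran from -2.49 to 1.73, so the sum does not show how single markers moved. The libraries are from bulk cells, so a change in every cell and a change in some of the cells cannot be told apart. Markers of B cells, myeloid cells, natural killer cells, erythroid cells and stromal or epithelial cells summed to at most 5.34, 3.48, 2.83, 1.18 and 16.9 CPM.

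In the TAL1/LMO1 line 7 of the 9 genes were higher with doxycycline than with DMSO, 1 was lower and 1 was not called. Calls are at an adjusted p under 0.05 from edgeR's quasi-likelihood test over all genes tested. In that line 28.5% of all genes tested were called higher and 31.7% lower, so a call alone set no gene apart there, and the sizes carry the description. The median log2 fold change of the 9 was 0.46, against -0.01 over all genes. The rises were largest for HLA-E, NLRC5 and HLA-F, smaller for HLA-B and HLA-C, and smallest for B2M and TAPBP. In the TAL1 line 1 of the 9 was called higher and none lower, where 0.982% of all genes were called higher and 0.853% lower. In the LMO1 line 1 was called higher and none lower, where 1.18% and 0.964% of all genes were. At an unadjusted p under 0.05, 3 members were higher in the TAL1 line and 4 in the LMO1 line, and 0 lower in either. The share of all genes at that unadjusted p was not computed, here or for the lists below. Such counts therefore set no gene apart. DESeq2 called the same numbers as edgeR in both lines (1 higher, 0 lower). It gave an adjusted p to only 6 of the 9 members in the TAL1 line and 7 in the LMO1 line. The members' median log2 fold changes were 0.09 and 0.14 in those 2 lines.

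**Figure D1:**
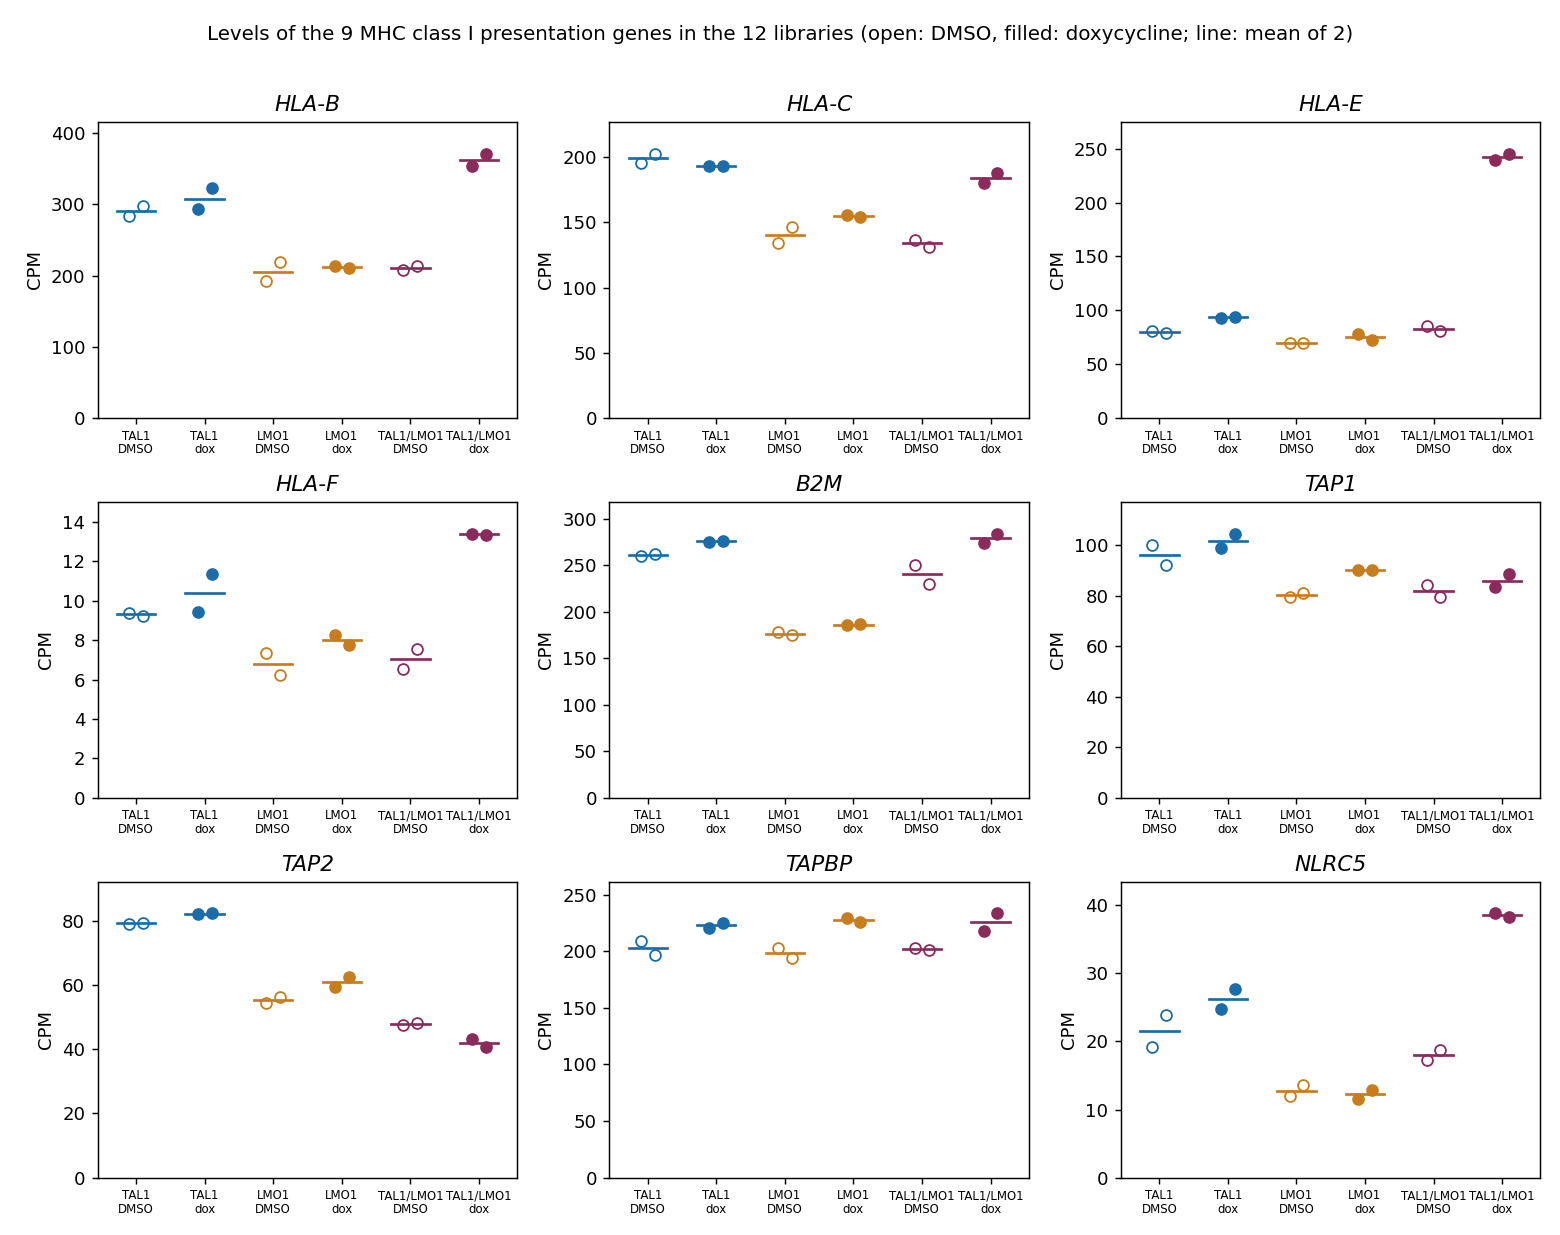
Level of each of the 9 genes in CPM (vertical axes from 0, a separate scale per gene) in the 12 libraries, by line and treatment; points are libraries and lines are means of 2. HLA-E in the TAL1/LMO1 line with doxycycline, at 239 and 245 CPM, stands far above the other 10 libraries, and TAP2 in the same group is at its lowest level.

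HLA-E, the ligand of CD94 receptors, changed most among the heavy chains. In the TAL1/LMO1 line it was at 85.2 and 80.9 CPM in DMSO and at 239 and 245 CPM in doxycycline. The other 8 libraries lay between 69.6 and 94.0 CPM, so the induced libraries stood apart from all the rest. The rise was 2.92-fold (log2 1.54, SE 0.05, n = 2 against 2, edgeR adjusted p = 2.60e-39). In the TAL1 line HLA-E was at 80.7 and 79.0 CPM in DMSO and at 93.0 and 94.0 CPM in doxycycline, a rise of 0.23 on the log2 scale (SE 0.06, edgeR adjusted p = 0.0175) that was also the only member call in that line. It lost its call when any 1 of the 4 TAL1-line libraries was left out (edgeR adjusted p from 0.0911 to 0.252). LMO1-line values were 69.9 and 69.6 CPM against 77.6 and 72.1 CPM, without a call (log2 0.10, SE 0.06, edgeR adjusted p = 0.529). The response of the TAL1/LMO1 line was larger than that of the TAL1 line by 1.32 and than that of the LMO1 line by 1.44 (log2, SE 0.08 for both).

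HLA-B, the most counted heavy chain, was at 207 and 214 CPM in the TAL1/LMO1 line in DMSO and at 354 and 371 CPM in doxycycline. The induced libraries were the highest of the 12, above the TAL1 line, whose 4 libraries ran from 284 to 323 CPM. The rise was 1.72-fold (log2 0.78, SE 0.05, edgeR adjusted p = 2.22e-22). In the TAL1 line 284 and 298 CPM stood against 294 and 323 CPM, and in the LMO1 line 192 and 219 CPM against 213 and 210 CPM. The DMSO and doxycycline libraries overlapped in both lines, and the log2 changes of 0.08 and 0.04 (SE 0.05 for both) had edgeR adjusted p of 0.546 and 0.822.

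HLA-C, the other classical heavy chain measured here, rose less. It went from 137 and 131 CPM to 181 and 188 CPM in the TAL1/LMO1 line, 1.37-fold (log2 0.46, SE 0.05, edgeR adjusted p = 1.78e-12). These induced levels stayed under those of the TAL1 line, which held 196 and 203 CPM in DMSO and 193 and 194 CPM in doxycycline. In that line the change was -0.04 (log2, SE 0.05, edgeR adjusted p = 0.812). In the LMO1 line 134 and 147 CPM stood against 156 and 154 CPM (log2 0.14, SE 0.05), a difference that missed the threshold (edgeR adjusted p = 0.187).

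HLA-F, a low-abundance non-classical chain, was at 6.54 and 7.53 CPM in the TAL1/LMO1 line in DMSO and at 13.4 and 13.3 CPM in doxycycline. Those 2 induced libraries were the highest of the 12. The rise was 1.90-fold (log2 0.93, SE 0.13, edgeR adjusted p = 4.60e-09). The TAL1 line held 9.37 and 9.25 CPM against 9.43 and 11.4 CPM, and the LMO1 line 7.33 and 6.26 CPM against 8.24 and 7.73 CPM. Their changes, 0.16 (SE 0.13) and 0.23 (SE 0.15) on the log2 scale, were not called (edgeR adjusted p of 0.702 and 0.577). HLA-F had 96 to 217 counts per library, and its SE was the largest of the 4 chains.

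B2M encodes the small invariant chain without which no class I heavy chain folds stably. It was at 251 and 230 CPM in the TAL1/LMO1 line in DMSO and at 274 and 284 CPM in doxycycline. The libraries did not overlap, and the rise of 1.16-fold was small beside that of the heavy chains (log2 0.22, SE 0.05, edgeR adjusted p = 5.74e-05). The TAL1 line held 260 and 262 CPM against 276 and 277 CPM, and the LMO1 line 178 and 175 CPM against 186 and 187 CPM. Neither change was called (log2 0.08 in both, edgeR adjusted p of 0.519 and 0.580). The response of the TAL1/LMO1 line exceeded each of theirs by 0.14 (95% interval 0.00 to 0.27 for both), which missed the threshold in both comparisons (edgeR adjusted p of 0.0962 against the TAL1 line and 0.0910 against the LMO1 line). Both differences were called in 2 of 15 alternatives, with total counts (0.20 and 0.22, edgeR adjusted p of 0.00885 and 0.00479) and without the first DMSO library of the TAL1/LMO1 line (0.19 in both, edgeR adjusted p of 0.0419 and 0.0405). Without its second DMSO library they were 0.06 and 0.07 (edgeR adjusted p of 0.563 and 0.536).

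**Figure D2:**
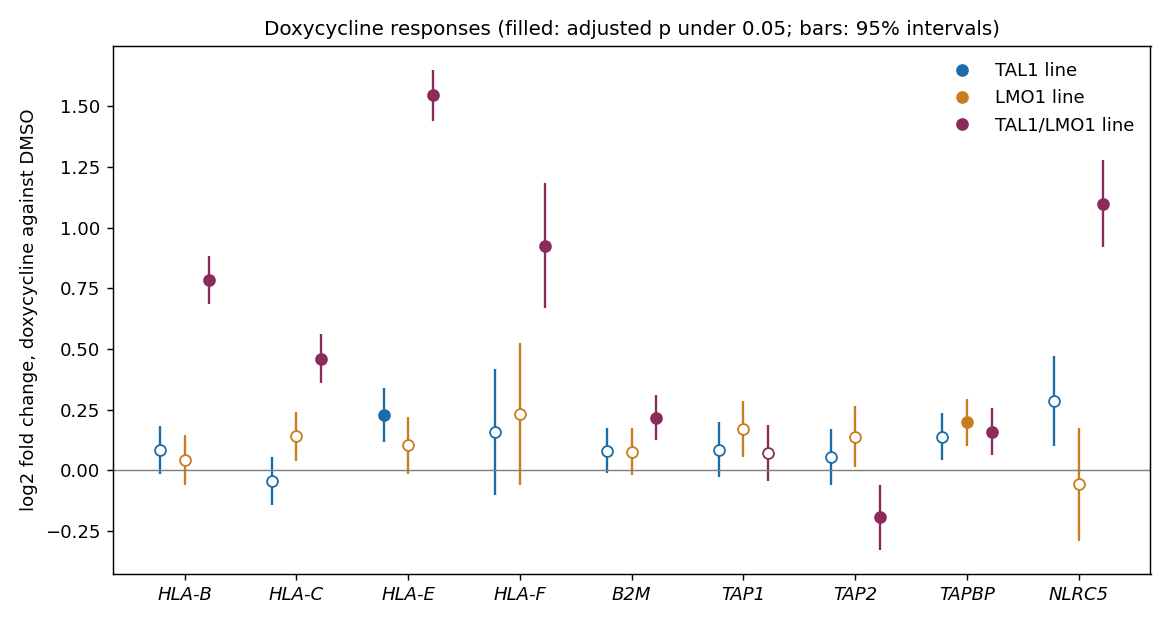
Log2 fold change of the 9 genes, doxycycline against DMSO, in the 3 lines; bars are 95% intervals and filled points have an adjusted p under 0.05. The TAL1/LMO1 line is apart from the others for HLA-B, HLA-C, HLA-E, HLA-F and NLRC5, lies below them for TAP2, and shares their range for TAP1 and TAPBP.

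The heavy chains together rose beyond B2M. Their 4 counts summed to 435 ± 1.71 CPM in the TAL1/LMO1 line in DMSO (mean ± SD, n = 2) and to 803 ± 21.7 CPM in doxycycline. The sums were 579 ± 13.5 and 605 ± 22.9 CPM in the TAL1 line, and 423 ± 27.1 and 450 ± 7.60 CPM in the LMO1 line. Summed heavy-chain counts per B2M count, a ratio that no scaling of the libraries touches, were 1.74 and 1.89 in the TAL1/LMO1 line in DMSO and 2.87 and 2.88 in doxycycline. In the TAL1 line the ratio was 2.19 and 2.24 in DMSO and 2.14 and 2.25 in doxycycline. The LMO1 line had 2.26 and 2.53 against 2.45 and 2.38. The TAL1/LMO1 line thus held the lowest ratios of the 12 libraries in DMSO and the highest in doxycycline, while the groups of the other lines overlapped. These are ratios of counts over genes of different length, and only their change between groups can be read.

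The make-up of the heavy-chain counts shifted in the same line. HLA-E made up 19.5% and 18.7% of them in DMSO and 30.4% and 30.0% in doxycycline (15.1% to 15.8% in the TAL1 line and 16.2% to 17.1% in the LMO1 line with doxycycline). HLA-C gave way, from 31.4% and 30.3% to 22.9% and 23.0%. HLA-B moved from 47.6% and 49.3% to 45.0% and 45.4%, and HLA-F held at most 1.74% in the 4 libraries. Each share rests on 6161 to 13321 heavy-chain counts per library. Per kilobase of exon (GENCODE 29), the induced TAL1/LMO1 line had a level of 119 CPM per kb for HLA-B, 81.5 for HLA-E, 73.5 for HLA-C and 3.08 for HLA-F. In DMSO the same line had 69.0, 27.9, 53.5 and 1.62 CPM per kb. These lengths join the exons of all annotated transcripts, 2507 bases for HLA-C and 2975 for HLA-E. With them HLA-E was above HLA-C per kilobase in the induced TAL1/LMO1 group and below it in the other 5 groups. The transcripts made in these cells were not determined, and the order in the induced group depends on the lengths used.

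**Figure D3:**
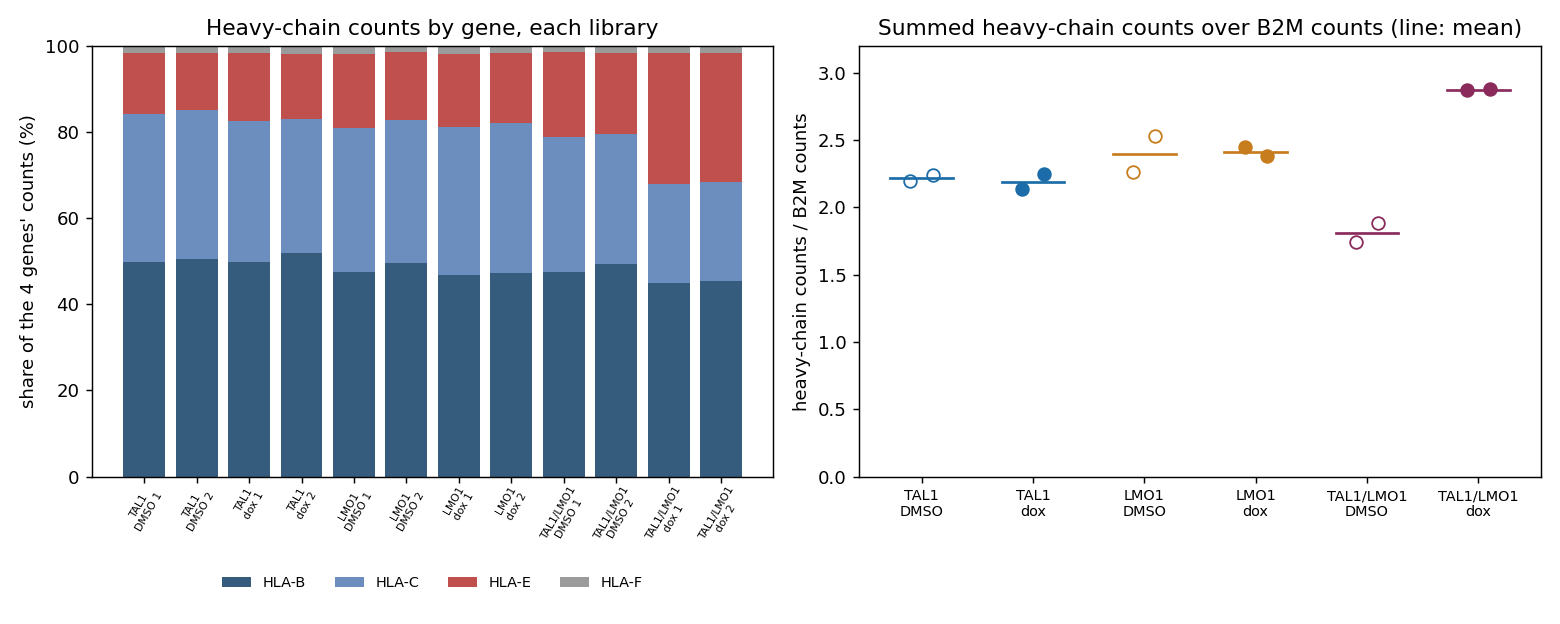
Left, share of each heavy-chain gene in the summed counts of the 4 genes (percent, 1 bar per library); right, summed heavy-chain counts divided by B2M counts (points are libraries, lines are means of 2). HLA-E takes about 30% in the 2 TAL1/LMO1 doxycycline libraries, 30.4% and 30.0%, and the ratio there moves from 1.74 and 1.89 to 2.87 and 2.88.

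Of the transporter subunits 1 was not called and 1 fell in the TAL1/LMO1 line. TAP1, a subunit of the peptide pump, was at 84.0 and 79.4 CPM in the TAL1/LMO1 line in DMSO and at 83.4 and 88.5 CPM in doxycycline, with overlapping libraries (log2 0.07, SE 0.06, 95% interval -0.04 to 0.19, edgeR adjusted p = 0.287). With libraries scaled by total counts alone its change was 0.17 and was called (edgeR adjusted p = 0.00906). TAP2, its partner, was at 47.4 and 48.3 CPM in DMSO and at 43.2 and 40.5 CPM in doxycycline, below every other library. The fall was 0.19 on the log2 scale (log2 -0.19, SE 0.07, edgeR adjusted p = 0.0118). It was not called with total counts (log2 -0.10, adjusted p = 0.229), by DESeq2 (adjusted p = 0.0529) or without the second doxycycline library of that line (edgeR adjusted p = 0.0862).

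In the TAL1 line TAP1 was at 99.9 and 92.0 CPM in DMSO and 99.0 and 105 CPM in doxycycline, and TAP2 at 79.1 and 79.3 CPM against 82.2 and 82.3 CPM. In the LMO1 line TAP1 was at 79.3 and 81.0 CPM against 90.0 and 90.3 CPM, and TAP2 at 54.4 and 56.4 CPM against 59.4 and 62.6 CPM. These 4 changes ran from 0.05 to 0.17 on the log2 scale and none was called (edgeR adjusted p from 0.143 to 0.800). The TAP2 response of the TAL1/LMO1 line was lower than that of the LMO1 line by 0.33 (SE 0.09, edgeR adjusted p = 0.00241). It was lower than that of the TAL1 line by 0.25 (SE 0.09, edgeR adjusted p = 0.0207). The second difference lost its call in 4 of 15 alternatives, among them total counts (edgeR adjusted p = 0.104) and DESeq2 (DESeq2 adjusted p = 0.0900). TAP2 shares 31.9% of its 100-base windows with an overlapping locus in GENCODE 29. Whether reads from those windows were counted for TAP2 is not known here, and other Gene_IDs of that symbol held 7 counts in all.

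TAPBP, which tethers the empty heavy chain to the transporter, had log2 changes of 0.14 to 0.20 in the 3 lines, called in 2 of them. It went from 203 and 201 CPM to 218 and 233 CPM in the TAL1/LMO1 line (log2 0.16, SE 0.05, edgeR adjusted p = 0.00374), from 203 and 194 CPM to 229 and 226 CPM in the LMO1 line (log2 0.20, SE 0.05, edgeR adjusted p = 0.0122), and from 209 and 196 CPM to 221 and 225 CPM in the TAL1 line (log2 0.14, SE 0.05, edgeR adjusted p = 0.158). In each line the doxycycline libraries lay above the DMSO libraries. The responses did not differ past the threshold, with differences of 0.02 (95% interval -0.12 to 0.16) from the TAL1 line and -0.04 (-0.18 to 0.10) from the LMO1 line. In the TAL1/LMO1 line the call was lost without the second DMSO library (edgeR adjusted p = 0.0530), without the second doxycycline library (0.176) or with no filter on low counts (0.0510). In the LMO1 line it was lost without the second DMSO library (0.201) or without either doxycycline library (0.157 and 0.0828).

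NLRC5, the class I transactivator, was at 17.3 and 18.7 CPM in the TAL1/LMO1 line in DMSO and at 38.8 and 38.3 CPM in doxycycline. These were the highest levels of the 12 libraries. The rise was 2.14-fold (log2 1.10, SE 0.09, edgeR adjusted p = 5.33e-18). The TAL1 line held 19.2 and 23.9 CPM against 24.8 and 27.8 CPM, an order without overlap that missed the threshold (log2 0.29, SE 0.09, edgeR adjusted p = 0.109) and passed it without the second DMSO library of that line (edgeR adjusted p = 0.0413) or in a fit of that line alone (0.0475). The LMO1 line held the lowest levels, 11.9 and 13.6 CPM against 11.6 and 12.9 CPM, with no call (log2 -0.06, SE 0.12, edgeR adjusted p = 0.914). The TAL1/LMO1 response was larger than the TAL1 response by 0.81 (SE 0.13) and than the LMO1 response by 1.16 (SE 0.15).

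Set against each other, the responses of the TAL1/LMO1 and TAL1 lines differed past the threshold for 6 members, 5 with the larger change in the TAL1/LMO1 line (HLA-B, HLA-C, HLA-E, HLA-F, NLRC5) and 1 with the lower (TAP2), where 18.4% of all genes tested were called higher and 25.4% lower. The same 6 members were called in the same directions against the LMO1 line, where 19.1% of all genes were called higher and 26.4% lower. Both contrasts use the same TAL1/LMO1 libraries, so the second is not independent of the first. The differences for HLA-B were 0.70 from the TAL1 line and 0.74 from the LMO1 line (log2, SE 0.07 for both), those for HLA-C 0.50 and 0.32 (SE 0.07 for both), and those for HLA-F 0.77 (SE 0.19) and 0.69 (SE 0.20). The 5 larger changes kept their call under every alternative setting and with any 1 library left out.

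In DMSO the lines already differed, also in TAL1 and LMO1. TAL1 had 62 and 60 counts in the TAL1 line, 48 and 114 in the TAL1/LMO1 line and 4 and 0 in the LMO1 line. LMO1 had 1 and 5, 7 and 107, and 60 and 27 counts in the same order. The part of either in the baseline differences was not tested. Among the DMSO libraries the TAL1 line was above the LMO1 line for 8 of the 9 members, all but TAPBP, where 18.5% of all genes tested were called higher. NLRC5 differed most (log2 0.76, SE 0.11), followed by B2M (0.56, SE 0.05), TAP2 (0.51, SE 0.06), HLA-C and HLA-B (0.50, SE 0.05 for both). HLA-E differed least of the 8 (0.20, SE 0.06), and its call was lost without the first TAL1 DMSO library (edgeR adjusted p = 0.0604). That of HLA-F (0.45, SE 0.14) was lost without that library (edgeR adjusted p = 0.0502), without the second LMO1 DMSO library (0.143) or by DESeq2 (0.0807).

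The TAL1/LMO1 line in DMSO was below the TAL1 line for 7 of the 9, where 23.0% of all genes were called lower. TAP2 was lowest by comparison (log2 -0.73, SE 0.06), then HLA-C (-0.57, SE 0.05) and HLA-B (-0.47, SE 0.05), all with their call kept throughout. HLA-F (-0.40, SE 0.14), NLRC5 (-0.26, SE 0.10), TAP1 (-0.23, SE 0.06) and B2M (-0.12, SE 0.05) each lost theirs under at least 1 left-out library, and the count of lower members was 4 without either TAL1 DMSO library. Against the LMO1 line, 3 members were higher, NLRC5 (0.50, SE 0.11), B2M (0.45, SE 0.05) and HLA-E (0.25, SE 0.06), where 20.4% of all genes were called higher. Only TAP2 was lower (-0.21, SE 0.07), where 20.6% of all genes were, and its call was lost without the first TAL1/LMO1 library (edgeR adjusted p = 0.0528), without the second LMO1 library (0.0664) or with total counts (0.0682). These 3 baseline comparisons share libraries with each other and with the responses. A low DMSO level in the TAL1/LMO1 libraries enters both its baseline and its response.

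The order of the 6 groups therefore differed by gene. For HLA-B, HLA-E, HLA-F and NLRC5 the induced TAL1/LMO1 group was first, the TAL1 line with doxycycline next, and the library ranges of those groups did not overlap. For B2M the same 2 groups led, at 279 ± 7.36 and 276 ± 0.716 CPM (mean ± SD, n = 2), with overlapping ranges. For HLA-C both TAL1-line groups, at 199 ± 4.88 and 193 ± 0.299 CPM, were above the induced TAL1/LMO1 group at 184 ± 5.40 CPM. For TAP2 the order ran from the TAL1 line (82.2 and 79.2 CPM) over the LMO1 line (61.0 and 55.4 CPM) to the TAL1/LMO1 line (47.8 CPM in DMSO and 41.9 CPM in doxycycline), with no overlap between neighbours. For TAPBP the 3 doxycycline groups led with 223 to 228 CPM and the 3 DMSO groups followed with 198 to 203 CPM, and within each set neighbours overlapped. At the low end, the LMO1 and TAL1/LMO1 DMSO groups overlapped for HLA-B, HLA-C, HLA-F and TAP1.

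Genes of peptide supply were mostly lower in the TAL1/LMO1 line with doxycycline. Of 15 tested genes for the proteasome core sites, the PA28 activator and peptide trimming, 11 were lower, 1 higher and 3 not called, with a median log2 change of -0.45. The shares over all genes tested in that line were 31.7% lower and 28.5% higher. PSMB6 and PSMB7, constitutive catalytic subunits, fell by 0.90 and 0.83 on the log2 scale (SE 0.06 and 0.05), and PSME1, a PA28 subunit, by 0.74 (SE 0.05). Among the immunoproteasome subunits, which interferon exchanges into the proteasome, PSMB8 fell by 0.45 (SE 0.06), from 86.2 and 91.4 CPM to 63.9 and 66.3 CPM. PSMB9, the neighbour of TAP1 that shares a bidirectional promoter with it, was at 26.9 and 28.3 CPM against 24.7 and 24.7 CPM (log2 -0.16, SE 0.08, edgeR adjusted p = 0.0862). PSMB10 was at 13.7 and 14.1 CPM against 16.2 and 15.7 CPM (log2 0.20, SE 0.11, edgeR adjusted p = 0.104). The trimming peptidases ERAP1 and ERAP2 of the endoplasmic reticulum both fell by 0.27 (SE 0.06 and 0.07), and LNPEP, an endosomal peptidase, was the 1 that rose (0.48, SE 0.13). In the other lines PSME1 in the TAL1 line was the only edgeR call of this list (log2 -0.20, SE 0.05, edgeR adjusted p = 0.0121). In that line 6 genes had an unadjusted p under 0.05 by edgeR, 5 lower and 1 higher. DESeq2 called 1 gene there and gave an adjusted p to only 10 of the 15. The LMO1 line had 0 calls by edgeR and 0 by DESeq2, with 3 genes at an unadjusted p under 0.05, 2 lower and 1 higher. In the LMO1 line DESeq2 gave an adjusted p to 14 of the 15.

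Folding and quality control split. All 11 listed genes were called in the TAL1/LMO1 line, 3 higher and 8 lower, with a median log2 change of -0.16. Among all genes tested there, 28.5% were called higher and 31.7% lower. CALR, the calreticulin of the peptide-loading complex, rose from 1379 and 1403 CPM to 2470 and 2391 CPM (log2 0.81, SE 0.04). TAPBPL, a tapasin-like peptide editor, rose by 0.49 (SE 0.08) and SPPL2A, an intramembrane protease, by 0.50 (SE 0.08). CANX, the calnexin that holds new heavy chains, fell by 0.45 (SE 0.05), PDIA3, the disulphide isomerase of the loading complex, by 0.41 (SE 0.05), HSP90B1, a general chaperone, by 0.50 (SE 0.04), and HM13, the signal peptide peptidase that releases the leader fragments shown by HLA-E, by 0.51 (SE 0.05). In the LMO1 line edgeR called 1 of the 11, HSPA5, a general chaperone that was lower (log2 -0.16, SE 0.04, edgeR adjusted p = 0.0306), and DESeq2 called 2. The TAL1 line had 0 calls by edgeR or DESeq2 and 0 genes at an unadjusted p under 0.05. In both lines DESeq2 gave an adjusted p to 9 of the 11.

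**Figure D4:**
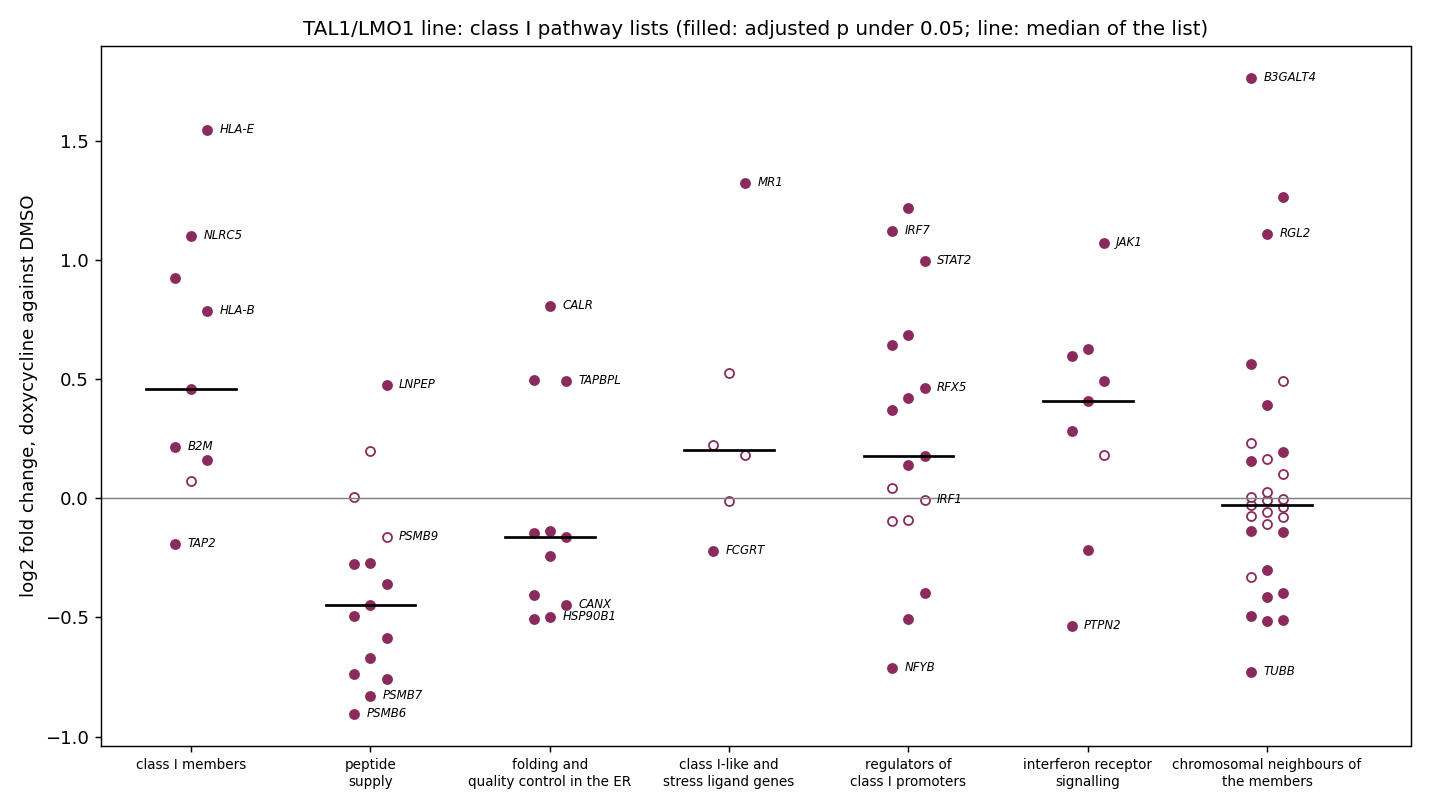
Log2 fold change, doxycycline against DMSO, in the TAL1/LMO1 line for the 9 class I genes and 6 lists of related genes; each point is a gene, filled at an adjusted p under 0.05, and black lines are list medians. The class I genes have a median of 0.46, peptide supply -0.45, and the genes beside the members on their chromosomes -0.03.

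Regulators of class I promoters rose more often than they fell. Of 17 tested, 10 were higher, 3 lower and 4 not called in the TAL1/LMO1 line, with a median of 0.18 (log2). There 28.5% of all genes tested were called higher and 31.7% lower. STAT2, which carries type I interferon signals, rose from 64.7 and 70.7 CPM to 133 and 137 CPM (edgeR adjusted p = 8.51e-26). IRF2 rose by 0.68 (SE 0.07) and IRF9, the DNA-binding partner of STAT2, by 1.22 (SE 0.15). IRF7, an interferon-induced factor, went from 7.95 and 7.98 CPM to 17.4 and 17.3 CPM (2.17-fold, log2 SE 0.13). IRF1, the interferon-gamma effector known for inducing NLRC5 and TAP1, was at 91.6 and 103 CPM against 96.5 and 96.7 CPM (log2 -0.01, SE 0.06, edgeR adjusted p = 0.913). Of the RFX complex that NLRC5 works through, RFX5 rose by 0.46 (SE 0.05) and RFXANK by 0.18 (SE 0.07), while RFXAP fell by 0.40 (SE 0.09) and the NF-Y subunit NFYB by 0.71 (SE 0.07). CIITA, the class II counterpart of NLRC5, was below the filter at 0.06 to 0.49 CPM. In each single line 0 genes of this list were called by edgeR or DESeq2, and 3 had an unadjusted p under 0.05. DESeq2 gave an adjusted p to only 6 of the 17 in the TAL1 line and 14 in the LMO1 line.

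Of 9 tested genes of interferon receptor signalling, 6 were higher, 2 lower and 1 not called in the TAL1/LMO1 line, with a median of 0.41 (log2). Again 28.5% of all genes tested were called higher in that line and 31.7% lower. JAK1, the kinase shared by both interferon receptor types, rose from 181 and 176 CPM to 366 and 385 CPM (log2 1.07, SE 0.05). TYK2 rose by 0.41 (SE 0.05), IFNAR2 by 0.49 (SE 0.06), JAK2 by 0.63 (SE 0.10) and the feedback inhibitor SOCS1 by 0.60 (SE 0.09), and the phosphatase PTPN2 fell by 0.54 (SE 0.06). IFNG itself was at no more than 0.07 CPM in any library, under the level of 3 counts. SOCS1 was the only call of the list in the TAL1 line (log2 0.38, SE 0.11, edgeR adjusted p = 0.0340; DESeq2 called 0). The LMO1 line had 0 calls by either tool and 0 genes at an unadjusted p under 0.05. Only 4 of the 9 genes in the TAL1 line and 6 in the LMO1 line were given an adjusted p by DESeq2.

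Few other antigen-presenting genes were tested, and some of those were near the counting floor. HLA-G, HFE and HLA-DMB were at no more than 1.14, 1.68 and 0.93 CPM in any library. Over all genes tested in the TAL1/LMO1 line 28.5% were called higher and 31.7% lower. Of the class I-like and stress ligand genes 6 of 13 were tested. MR1, which presents vitamin metabolites, rose from 23.6 and 22.9 CPM to 56.5 and 59.8 CPM in the TAL1/LMO1 line (log2 1.32, SE 0.08), FCGRT, the B2M-bound antibody receptor, fell by 0.22 (SE 0.05), and the remaining 4 were not called. Of 12 class II genes 3 were tested, and HLA-DMA, the class II peptide exchanger, rose to 2.80 and 2.83 CPM from 1.48 and 0.90 CPM (log2 1.24, SE 0.30, edgeR adjusted p = 0.000221). HLA-DRA, HLA-DPB1, HLA-DQA1 and HLA-DQB1 had 0 counts in all 12 libraries, where 3 counts correspond to at most 0.198 CPM. In the single lines edgeR called 0 genes of these lists, and 1 class I-like gene had an unadjusted p under 0.05 in the LMO1 line. DESeq2 called 0 as well, but gave an adjusted p to 0 of the 3 class II genes in both lines and to only 1 of the 6 class I-like genes in the TAL1 line and 2 in the LMO1 line.

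Genes beside the members on their chromosomes were called in both directions. Of the 9 members 7 lie on chromosome 6, B2M on chromosome 15 and NLRC5 on chromosome 16. Of 31 tested genes beside them, 7 were higher, 9 lower and 15 not called in the TAL1/LMO1 line, with a median of -0.03 (log2). Over all genes tested in that line 28.5% were called higher and 31.7% lower, so a call set none of these neighbours apart. B3GALT4 (1.76, SE 0.16) and RGL2 (1.11, SE 0.09), both near TAPBP, were higher, and TUBB, a tubulin gene of the class I region, was lower (-0.73, SE 0.04). WDR46, also near TAPBP, fell by 0.51 (SE 0.07) in this line and by 0.22 (SE 0.06, edgeR adjusted p = 0.0458) in the TAL1 line. HERPUD1, near NLRC5, was the only neighbour that edgeR called in the LMO1 line (log2 0.29, SE 0.08, edgeR adjusted p = 0.0369). DESeq2 called 0 neighbours in either single line, among 14 with an adjusted p in the TAL1 line and 18 in the LMO1 line.

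The genes whose levels ran most like each member over the 12 libraries were found by Pearson's r of log2 CPM among the 10033 tested genes that averaged 5 CPM or more. The libraries share lines and treatments, so r mostly follows 6 group means and is given without a test. HLA-B was followed most closely by TMEM173 (r = 0.985), which encodes the DNA-sensing adaptor STING, and C19orf66 (0.984), HLA-F by SP110 (0.969), and HLA-E by CERKL (0.995), SPN (0.993) and ZFP36L1 (0.993). For NLRC5 the closest were GOLGA8B (0.989), RCBTB2 (0.981) and KLF2 (0.977), for B2M UPP1 (0.986), and for HLA-C POMT1 (0.985). TAP2 was followed by TASP1 (0.993) and by ERAP2 (0.993), the trimming peptidase described above. TAP1 (APOL6, 0.930) and TAPBP (GGCX, 0.858) had looser companions. None of these 9 lists of 3 genes held another member.

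In the authors' deposited table for the TAL1/LMO1 line the log2 fold change was 1.54 for HLA-E and 1.09 for NLRC5. The authors' deposited table gave TAP2 -0.20 with an adjusted p of 0.164, so TAP2 was not called there, and TAPBP 0.15 with an adjusted p of 0.0368. In the authors' deposited table for the LMO1 line TAPBP had an adjusted p of 0.0457. In the authors' deposited table for the TAL1 line HLA-E had 0.23 and an adjusted p of 0.443.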

How the data were processed

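RNA was sequenced as strand-specific 100-base read pairs on DNBSEQ, per the labels' protocols. Per the submitters' processing notes, the tools were STAR 2.5.2a, featureCounts and DESeq2 1.12.4 with build hg19. Not given in the sources used here are their settings for strand and for reads that map to several places. Such settings matter for the HLA genes, whose alleles and copies resemble each other: of 100-base windows of the GENCODE 29 transcripts, HLA-C shared 0.23% and HLA-E 0.6% with other genes and HLA-B and HLA-F shared 0, for reference alleles only. The authors deposited raw counts per gene, without normalization, and for each line a DESeq2 table with a mean normalised count (a signal), a log2 fold change with its error, a score (the Wald statistic), a p-value and an adjusted p-value, per the file headers.

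Levels, tests and shares were computed from the deposited counts. Where a symbol had several Gene_IDs, the one with the most counts stood for it. Genes were filtered with filterByExpr and scaled by TMM in edgeR 4.0.16 (R 4.3.3), and 1 quasi-likelihood model (robust, 6 groups, 6 residual and a median of 66 prior degrees of freedom, prior count 0.125) gave two-sided tests with Benjamini-Hochberg adjustment over 16287 genes. The SE was taken from the log2 change and its F statistic, or from counting error where that was larger. The common biological coefficient of variation was 3.35%. Nothing in the sources says that the 2 libraries of a group were separate cultures, so the p-values speak for the spread of these libraries, which may be technical; all pairs differed beyond counting noise. The method was tested on simulated data with genes of all levels. There was 1 run per line, with 47 to 49 simulated 1.25-fold changes in each. Of these, 33.3% (TAL1), 34.7% (LMO1) and 51.1% (TAL1/LMO1) were recovered. Every run used the same gene means and spreads for all groups, so these shares do not compare the lines. A 1.25-fold change can thus go uncalled. Alternatives were DESeq2 1.42.0, DESeq2 size factors in edgeR, total counts, no filter, a replicate block, only the groups compared, counts summed per symbol, and each library left out. Motifs were searched with Python 3.11.15, and windows aligned with Biopython 1.88.

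The 9 members and all gene lists were chosen with earlier results of these data known. Named beside the members are TAL1 and LMO1, up to 6 called genes per list with the smallest p in the TAL1/LMO1 line and up to 4 in other responses, IRF1, CIITA, the RFX genes, PSMB8, PSMB9, PSMB10, and the 3 genes most like each member. A gene that the rule would also name is not reported here. Named after their values were seen are IRF9, IFNG, ERAP1, ERAP2, LNPEP, SPPL2A, PDIA3, KLRD1, HLA-G, HFE and HLA-DMB, and the class II genes at 0 counts. The summed marker levels of other cell types were a check only.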

Additional observations from a re-analysis of the deposited data

Results flagged for a closer look

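The doxycycline response of 6 members differed between lines by the test of the difference itself (edgeR quasi-likelihood test, adjusted over all genes). Relative to the TAL1 line, the TAL1/LMO1 response differed on the log2 scale by 0.70 for HLA-B, 0.50 for HLA-C, 1.32 for HLA-E, 0.77 for HLA-F, 0.81 for NLRC5 and -0.25 for TAP2. That TAP2 difference lost its call in 4 of 15 alternatives. Relative to the LMO1 line, the differences were 0.74 for HLA-B, 0.32 for HLA-C, 1.44 for HLA-E, 0.69 for HLA-F, 1.16 for NLRC5 and -0.33 for TAP2. TAL1 with doxycycline was at 932 and 868 CPM in the TAL1/LMO1 line and at 35.5 and 42.9 CPM in the TAL1 line, and the part of that gap in these differences was not tested. Groups of 2 libraries are too small for a check of single outlying libraries.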

How the results depend on the processing

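Of 859 values of single members under alternatives, 788 kept their direction and side of the threshold, 37 lost a call, 8 gained one and 26 changed sign, none of the 26 with an adjusted p under 0.05 on either side. In the TAL1/LMO1 line HLA-B, HLA-C, HLA-E, HLA-F, B2M and NLRC5 kept their call in all 11 alternatives.

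Library numbers 1 and 2 did not pair the groups: the difference between both libraries of a group correlated between groups by -0.01 to 0.06 over 16287 genes. With a replicate block all 72 member values kept their side of the threshold, and 190 genes were higher in the TAL1 line with doxycycline against 160 without the block.

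Settings changed some counts. With total counts, the lower members were 0 in the TAL1/LMO1 response, 0 in its difference from the TAL1 response and 0 in its DMSO comparison with the LMO1 line. By DESeq2 they were 0 in the first 2 of these. The cause was not tested. DESeq2 called 60 genes higher in the TAL1 line (160 by edgeR) and 90 in the LMO1 line (192). In the TAL1 line 57 genes were lower with total counts and 286 in a fit of that line alone (139). That fit called 3 members higher instead of 1, where it called 237 of 14630 genes higher (160 of 16287 in the main fit). With 1 library left out, the TAL1 line had 63 to 108 genes higher, 31 to 48 lower and 0 to 1 members higher, and the LMO1 line 82 to 149, 70 to 135 and 0 to 1. Lower members were then 0 to 1 in the TAL1/LMO1 response, 0 to 1 in its difference from the TAL1 response, 0 to 1 in DMSO against the LMO1 line and 4 to 6 against the TAL1 line. The lone library left in a group is assumed to vary like the others.

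Small uncalled log2 values changed sign. With total counts these were TAPBP in DMSO, TAL1/LMO1 against TAL1 (0.0519; 0.0033 with only those groups), TAPBP in the difference from the LMO1 response (0.0438) and TAP1 in that from the TAL1 response (0.0556; 0.0096 with DESeq2 size factors, 0.0018 by DESeq2). With no filter TAPBP in the difference from the TAL1 response was -0.0152. Leaving out 1 library gave the ranges -0.0587 to 0.1323 for HLA-B, -0.0623 to 0.1676 for HLA-F, -0.0145 to 0.0676 for TAP1 and -0.007 to 0.0564 for TAPBP in DMSO (TAL1/LMO1 against LMO1). For TAPBP in DMSO it gave -0.0514 to 0.0392 against the TAL1 line and -0.015 to 0.0755 for TAL1 against LMO1. In the difference from the TAL1 response it gave -0.0842 to 0.0326 for TAP1 and -0.0493 to 0.0523 for TAPBP, and in the LMO1 response -0.0485 to 0.1423 for HLA-B and -0.1468 to 0.0377 for NLRC5.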

Other observations

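KLRD1, which encodes CD94, the receptor chain that natural killer cells use to read HLA-E, was itself counted in the TAL1/LMO1 line. It was at 2.57 and 2.83 CPM in DMSO and at 0.31 and 0.18 CPM in doxycycline, while HLA-E went from 85.2 and 80.9 CPM to 239 and 245 CPM. The doxycycline level of the second library is that of 3 counts, and no fold or test is given because the gene passed the filter on low counts only through the DMSO libraries of this line. In the other 2 lines KLRD1 was at 0.13 CPM or less in every library. The gene was picked from the natural killer marker list after its values were seen, and the other 4 markers of that list had 0 counts in both DMSO libraries of this line.

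Peptide supply was compared between the lines in DMSO as well. Of the 15 tested peptide supply genes 12 were lower in the TAL1/LMO1 line than in the TAL1 line, with a median log2 difference of -0.32, where 23.0% of all tested genes were lower. Against the LMO1 line 8 were lower, with a median of -0.21, where 20.6% of all tested genes were lower. PSMB9 was at 68.6 and 66.6 CPM in the TAL1 line, 28.8 and 27.8 CPM in the LMO1 line and 26.9 and 28.3 CPM in the TAL1/LMO1 line. IRF1 was at 193 and 195 CPM, 104 and 110 CPM, and 91.6 and 103 CPM in the same order.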
